A study of Mus musculus with 8 samples.

Results

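The genes described here code for the proteins of the mitochondrial ribosome. They were taken as the protein-coding genes whose GENCODE symbol begins with Mrpl or Mrps and a digit, with at least 20 reads summed over the 8 libraries. Of 41214 counted genes, 77 met this rule, 48 named for the large subunit and 29 for the small subunit, and none with a matching protein-coding symbol fell under the minimum. Another 5 genes with a matching symbol are pseudogenes and were left out, and Mrpl33 is not analysed here. All 77 genes passed the filter on low counts in every comparison.

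Poly(A) RNA of total bone marrow was sequenced from 8 C57Bl6 mice, 2 in each of 4 groups. Ages at sampling were 187 and 78 days for sick KD, 158 and 101 days for old KO, 48 and 44 days for young KO, and 39 and 42 days for young KD. KO mice lack Gfi1, a transcriptional repressor of blood cell development, and in KD mice the mouse gene is replaced by human GFI1 that a neo cassette keeps at a low level. The labels give AML for the sick KD mice and no AML for the other groups, whereas the study describes the sick mice as having a myeloproliferative disease. No wild-type mice are among these libraries, so every comparison is between mice with an altered Gfi1 locus.

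Counts on genes ranged from 26642067 to 42679114 per library, and the 77 genes took between 73090 and 124511 of them. The mouse Gfi1 gene was counted at 13.3 and 29.7 CPM (counts on the gene scaled to library size with TMM factors) in the libraries labelled old KO and 14.0 and 14.4 CPM in those labelled young KO. In the libraries with a KD label it was lower, at 5.49 and 7.15 CPM (sick) and 6.17 and 7.03 CPM (young). Mouse Gfi1 counts were thus not lowest in the libraries labelled KO. Counts per gene do not show which part of the locus the reads came from, and the mouse gene is replaced in KD mice, so this level does not check the labels, on which all directions below rest. Of uniquely aligned reads, 42.0% and 38.8% matched no counted feature in the sick KD libraries and 26.9% to 33.8% in the other 6. This tally does not tell reads between genes from reads inside genes that missed the counted features. No gene of the marker lists for bone marrow cell types was at 0 in all 8 libraries. The summed level of 10 erythroid genes was 977 and 1402 CPM in sick KD, under the 2005 to 6087 CPM of the other libraries (10 of 10 genes fell against old KO and against young KD), and that of 8 B cell genes was 35.7 and 85 CPM in sick KD, 112 and 163 CPM in old KO and 484 to 696 CPM in young mice. The sum of 12 neutrophil genes was 9229 and 7387 CPM in sick KD, above 4083 to 5403 CPM elsewhere (4 genes rose and 1 fell against old KO). For 8 T and NK cell genes the sum was 22.9 and 17.1 CPM in sick KD, under 39.0 to 53.3 CPM elsewhere (5 of 8 fell against old KO), and for 8 monocyte genes it was 9253 and 8629 CPM, above 5968 to 8180 CPM elsewhere (2 of 8 fell against old KO). Sums of megakaryocyte, progenitor and dividing-cell genes had 1 or both sick KD libraries within the range of the others. In whole marrow, fewer cells of a type and less RNA per cell cannot be told apart, and the part of these cell types in the results below was not tested.

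Mitochondrial ribosomes translate the few messages that the mitochondrial genome encodes, all of them for subunits of the respiratory chain and the ATP synthase. Their ribosomal RNA comes from the mitochondrial genome, but all their proteins are encoded in the nucleus, made in the cytosol and imported. The large subunit forms the peptide bond and binds the inner membrane near the exit tunnel, the small subunit holds the message, and many proteins of both have no counterpart in bacteria. Several names predate the structures: Mrps18a and Mrps30 belong to the large subunit, and Mrps36 has since been placed in the oxoglutarate dehydrogenase complex.

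The genes are scattered over 17 chromosomes, with 11 on chromosome 11. RefSeq promoter windows on GRCm38.p6, from 250 bases before to 50 bases after the start site, were found for 68 of the 77 genes. Windows were not found for Mrpl4, Mrpl13, Mrpl15, Mrpl19, Mrpl38, Mrpl54, Mrps28, Mrps34 and Mrps35. Promoter stretches are printed for Mrpl1, Mrpl12, Mrpl35 and Mrpl42, which with Mrpl32 are the 5 genes that changed differently in KD and KO mice in the interaction test described further on. Each stretch lies before the RefSeq start site and stops where an annotated exon begins. In the GENCODE annotation Mrpl1 and Mrpl35 begin further upstream, so that their stretches lie inside those genes, between exons. In the stretches, capitals mark GGGCGG or its reverse complement CCGCCC, the core letters of an Sp1 site.
Mrpl1, chr5:96210005-96210080, plus strand: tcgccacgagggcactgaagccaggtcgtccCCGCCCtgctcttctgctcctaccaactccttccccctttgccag
Mrpl12, chr11:120484527-120484612, plus strand: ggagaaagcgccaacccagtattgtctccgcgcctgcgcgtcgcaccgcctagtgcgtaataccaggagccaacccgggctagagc
Mrpl35, chr6:71823811-71823894, minus strand: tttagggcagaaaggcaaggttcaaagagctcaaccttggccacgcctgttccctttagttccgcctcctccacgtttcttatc
Mrpl42, chr10:95501950-95502059, minus strand: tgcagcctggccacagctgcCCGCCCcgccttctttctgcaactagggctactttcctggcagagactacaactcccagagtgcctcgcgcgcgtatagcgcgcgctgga

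These stretches hold the Sp1 letters in Mrpl1 and Mrpl42 and not in Mrpl12 or Mrpl35. Over the whole windows, searched on both strands, CCGGAAG, the core of an ETS factor site such as that of GABP, was found in 25 of 68 genes (36.8%) against 9.93% of the 27025 genes with a window. AAGATGGC, the core of a YY1 site, was found in 12 genes (17.6% against 3.19%). Of the genes with a window that are called further on, Mrpl32, Mrpl35, Mrpl42 and Mrpl49 had it. Mrpl1, Mrpl12, Mrpl30, Mrpl58, Mrps9 and Mrps14 did not. GGGCGG was found in 34 genes (50% against 38.2%) and CACGTG, the E-box that MYC can bind, in 5 genes (7.35% against 8.09%). The palindrome GCGCATGCGC, a full NRF1 site, was found in 3 genes, all of the large subunit (4.41% against 1.07%), and is shown in capitals within 30 bases of each window. In the GENCODE annotation Mrpl32 and Mrpl39 begin further upstream, so that their matches lie inside those genes. The median GC content of the windows was 58.2%, against 52.8% for all genes. These matches describe the letters only and carry no measure of binding.
Mrpl9, chr3:94443298-94443327, plus strand: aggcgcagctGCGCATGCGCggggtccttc
Mrpl32, chr13:14613105-14613134, minus strand: tttgacccttGCGCATGCGCaagaggggcc
Mrpl39, chr16:84735350-84735379, minus strand: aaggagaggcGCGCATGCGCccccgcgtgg

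In 24 of the 68 genes (35.3%) the window overlapped that of another gene on the other strand, against 11.9% of all genes. One such pair joins the subunits. The RefSeq start sites of Mrpl46 and Mrps11 lie 42 bases apart on chromosome 7. From these sites the genes point away from each other, and their windows share 141 bases. In the GENCODE annotation each gene begins further upstream, so that Mrpl46 and Mrps11 overlap, with exons of each across those of the other on the opposite strand. The strand setting of the counting is not given, and the effect of this overlap on their levels was not tested. Mrpl46 was at 21.4 and 20.6 CPM in sick KD and 19.0 and 18.6 CPM in old KO, and Mrps11 at 16.5 and 18.2 CPM in sick KD and 17.2 and 19.5 CPM in old KO. The ranges of the groups were apart for Mrpl46 and overlapped for Mrps11, and neither difference passed the test (adjusted p = 0.471 and 0.726, quasi-likelihood test of edgeR, Benjamini-Hochberg adjustment).

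The summed level of the 77 genes was 2951 and 3068 CPM in sick KD, 2624 and 2708 CPM in old KO, 2829 and 2642 CPM in young KO and 2655 and 2635 CPM in young KD. Both sick KD libraries were above the other 6. As a share of unscaled counts, however, the genes took 0.274% and 0.286% in sick KD, within the 0.269% to 0.292% of the other libraries, because TMM scaled the sick KD libraries by 0.930 and 0.933 and the others by 0.997 to 1.04. The SD of log2(CPM + 1) over the 8 libraries had a median of 0.12 among the 77 genes, beside 0.19 for the 10274 genes in the same range of mean levels. The median level of those genes was lower, at 16.9 CPM against 33.8 CPM, so the spreads are not compared at equal levels. With 2 mice per group, an exact permutation test of a single value cannot go below p = 0.333, so the sums were not tested.

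The balance between the subunits was nearly fixed. The summed level of the large subunit was 1994 and 2087 CPM in sick KD and 1775 to 1921 CPM in the other libraries, and that of the small subunit was 957 and 981 CPM in sick KD and 849 to 908 CPM elsewhere. Both subunits were thus highest in the sick KD libraries. Their ratio lay between 2.08 and 2.13 in all 8 libraries, and each group spanned most of that range or lay inside it. Placing Mrps18a and Mrps30 in the large subunit and leaving out Mrps36 moved the ratio to between 2.42 and 2.51.

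**Figure D1:**
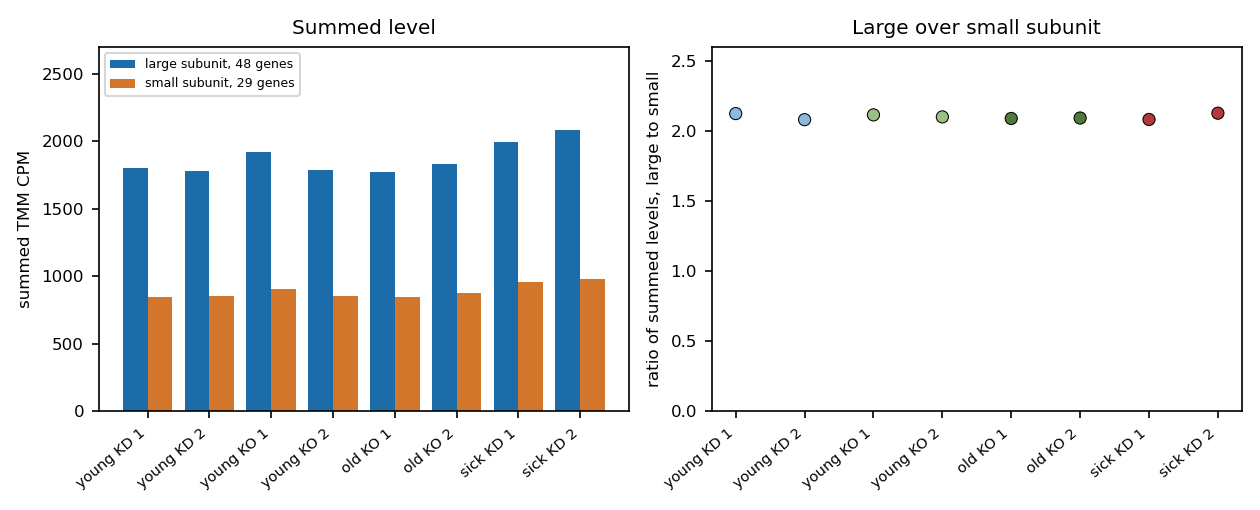
Left, summed TMM CPM of the 48 large-subunit genes (blue bars) and the 29 small-subunit genes (orange bars) in each of the 8 libraries. Right, the ratio of these sums in each library, coloured by group, on an axis that starts at 0, with every library between 2.08 and 2.13.

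Levels between genes were compared per kilobase of the principal transcript. The median over all 8 libraries was 23.6 CPM per kb for the large subunit and 16.3 CPM per kb for the small subunit. In the large subunit the highest levels per kb were those of Mrpl20 (79.3), Mrpl52 (74.2), Mrpl18 (70.3) and Mrpl30 (66.9). Mrpl53 (1.04), Mrpl17 (4.59), Mrpl47 (5.48) and Mrpl19 (7.84) were the lowest. In the small subunit Mrps21 (62.4 CPM per kb), Mrps18c (53.0), Mrps24 (40.8) and Mrps9 (37.5) were the highest and Mrps6 (5.62), Mrps25 (5.94), Mrps5 (7.32) and Mrps35 (8.11) the lowest. Mrpl53 had only 192 reads in all 8 libraries together, and its exons overlap Gm42688 on the same strand and Ccdc142os on the other, so its level is uncertain. Levels per kb depend on which transcript is taken as principal.

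The comparison of sick KD with old KO asks how marrow of diseased KD mice differs from that of KO mice without the disease. Allele and disease differ together between these groups and cannot be told apart. Of the 77 genes 7 rose and 0 fell, 6 of the large subunit (Mrpl1, Mrpl32, Mrpl35, Mrpl42, Mrpl12 and Mrpl58) and 1 of the small (Mrps9). Among the 14470 genes tested 8.22% rose, 9.93% fell and 18.1% were called in all, so the share of the 77 genes that rose was close to that of all genes, and the share called in either direction was below it. The median log2 fold change of the 77 genes was 0.16, beside 0.01 for all genes, and 60 genes (77.9%) were above 0, beside 50.5% of all genes. Large and small subunits had medians of 0.16 and 0.19. Both sick KD mice lay above both old KO mice in 47 genes (33.5% of all genes did so) and below them in 9 genes (32.5% of all genes).

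The changes were small, from -0.37 to 0.65 on the log2 scale. On total counts in place of TMM the median of the group was 0.05, beside -0.11 for all genes, and 5 genes were called higher and 1 lower. Calls among these genes were lost when single mice were left out. Such a fit has 1 mouse in a group, and fewer of all genes were called too, except without sick KD replicate 2. The median of the group then lay between 0.15 and 0.22.

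**Figure D2:**
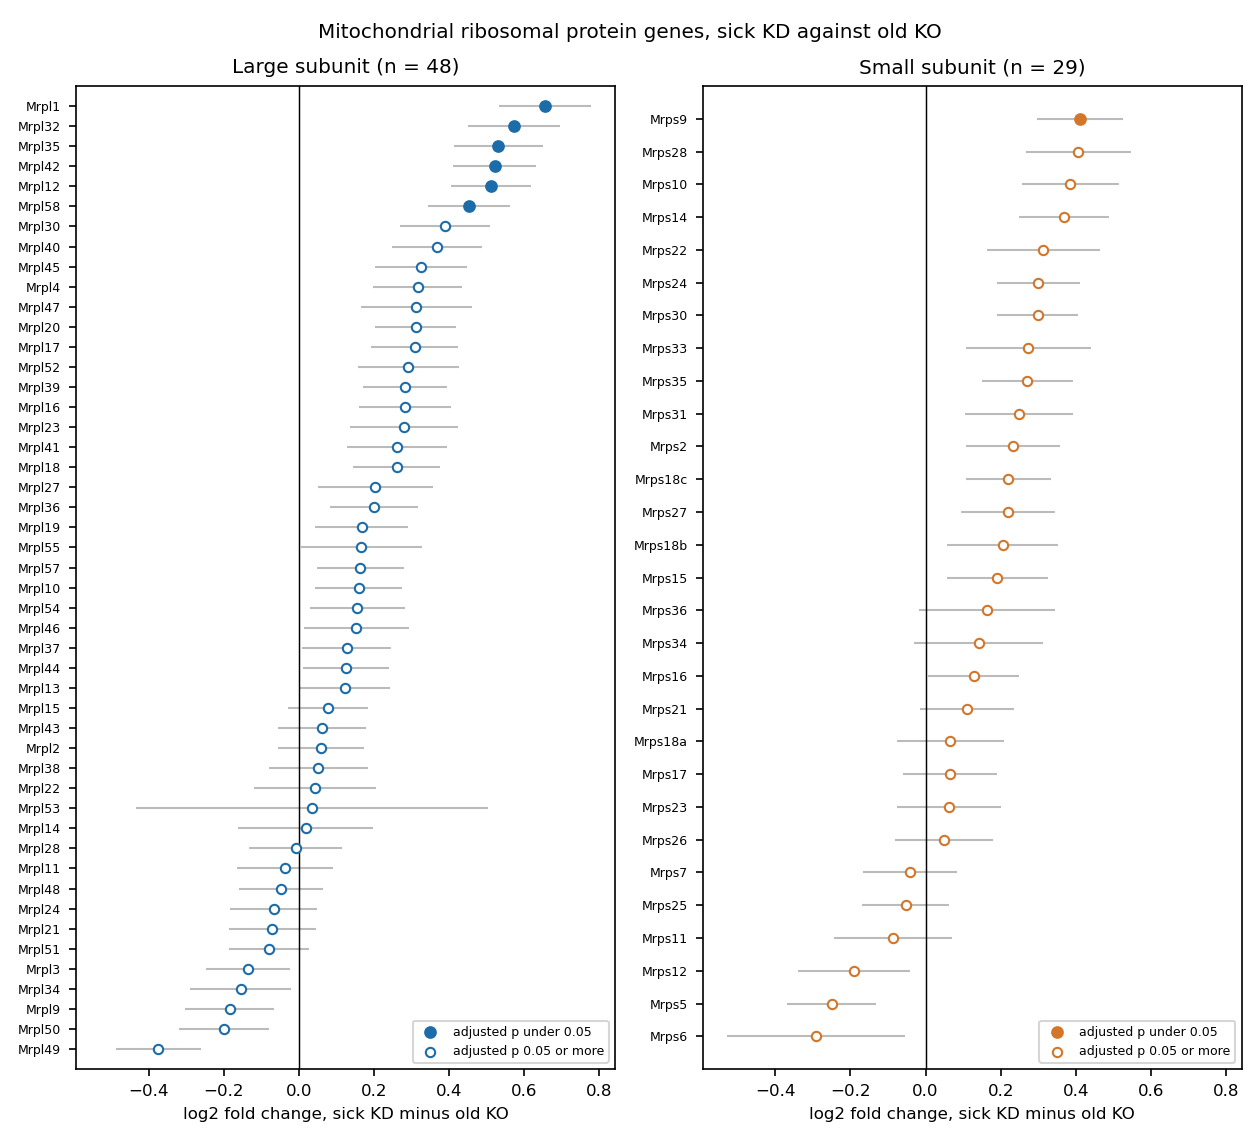
Log2 fold change of each gene between sick KD and old KO (2 mice each), for the large subunit (left, blue) and the small subunit (right, orange), in the order of the change. Bars are standard errors from edgeR, filled points have an adjusted p under 0.05, and the filled points run from 0.41 (Mrps9) to 0.65 (Mrpl1).

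Mrpl1, a protein of the L1 stalk near the exit site for transfer RNA, showed the largest difference. It was at 56.9 and 50.6 CPM in sick KD (53.7 ± 4.39, SD, n = 2), 32.5 and 35.6 CPM in old KO (34.1 ± 2.16), 39.7 and 39.8 CPM in young KO and 36.6 and 39.3 CPM in young KD. The sick KD mice stood above the other 6 mice without overlap. The log2 fold change against old KO was 0.65 ± 0.12 (SE, adjusted p = 0.0163, quasi-likelihood test of edgeR, Benjamini-Hochberg adjustment).

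Mrpl32, which the m-AAA protease must cut before the large subunit can be completed, was at 35.1 and 33.0 CPM in sick KD, 22.7 and 23.0 CPM in old KO, 25.8 and 23.2 CPM in young KO and 23.0 and 24.3 CPM in young KD. Only the sick KD mice were above 26 CPM. Its log2 fold change against old KO was 0.57 ± 0.12 (SE, adjusted p = 0.024, edgeR with Benjamini-Hochberg adjustment). Afg3l2, which codes for a subunit of that protease, moved the other way, from 59.8 and 56.0 CPM in old KO to 42.5 and 43.0 CPM in sick KD (log2 fold change -0.44 ± 0.11, SE, adjusted p = 0.0358, edgeR with Benjamini-Hochberg adjustment). For Spg7, which codes for another subunit of it, the groups overlapped, at 65.6 and 60.2 CPM in old KO and 50.9 and 60.9 CPM in sick KD.

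Mrpl12, a protein of the stalk that also binds the mitochondrial RNA polymerase, was at 78.9 and 78.2 CPM in sick KD (78.5 ± 0.46, SD, n = 2) and 53.4 and 56.6 CPM in old KO (55.0 ± 2.22), with 63.9 and 57.3 CPM in young KO and 54.3 and 55.8 CPM in young KD. The 2 sick mice were nearly equal and well above the rest. The difference from old KO was 0.51 ± 0.11 on the log2 scale (SE, adjusted p = 0.0224, edgeR with Benjamini-Hochberg adjustment). An antisense gene, Gm16755, overlaps it.

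Mrpl42, a large-subunit protein without a bacterial counterpart, was at 53.2 and 53.3 CPM in sick KD and 36.2 and 37.9 CPM in old KO, and Mrpl35 was at 43.9 and 42.7 CPM in sick KD and 28.3 and 31.4 CPM in old KO. In young mice Mrpl42 was between 36.0 and 40.3 CPM and Mrpl35 between 29.6 and 32.2 CPM. Both genes were therefore higher in the sick KD mice than in every other mouse. Their log2 fold changes against old KO were 0.52 ± 0.11 and 0.53 ± 0.12 (SE, adjusted p = 0.0228 and 0.0271, edgeR with Benjamini-Hochberg adjustment).

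Mrpl58, also known as Ict1, is a subunit that can release peptides from stalled ribosomes. It was at 54.8 and 58.4 CPM in sick KD, 40.6 and 42.0 CPM in old KO, 44.8 and 36.7 CPM in young KO and 37.8 and 38.4 CPM in young KD. The sick KD mice did not overlap any other mouse, and the log2 fold change against old KO was 0.45 ± 0.11 (SE, adjusted p = 0.0332, edgeR with Benjamini-Hochberg adjustment). Mrps9, a protein of the small-subunit head, was at 64.6 and 59.1 CPM in sick KD, 44.8 and 47.9 CPM in old KO, 51.2 and 51.7 CPM in young KO and 52.1 and 53.7 CPM in young KD. Its old KO mice were the lowest of the 4 groups. The log2 fold change was 0.41 ± 0.11 (SE, adjusted p = 0.0487, edgeR with Benjamini-Hochberg adjustment), just inside the threshold.

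**Figure D3:**
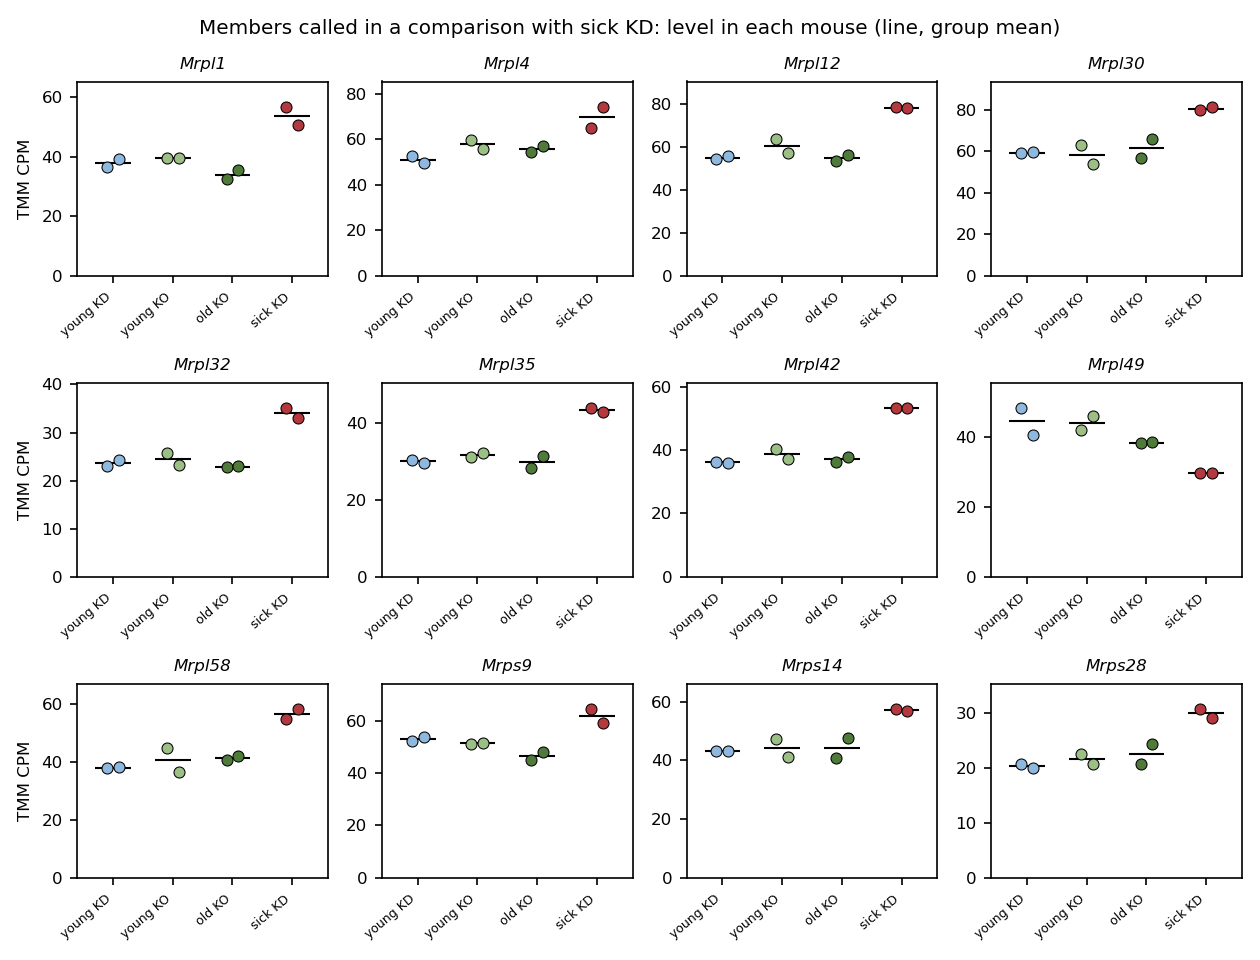
TMM CPM in each of the 8 mice (points, with a line at each group mean, n = 2) for the genes called in a comparison of sick KD with old KO or with young KD, on axes that start at 0. In all panels the 2 sick KD mice lie outside the range of the other 6, above it except for Mrpl49, where they lie below it at 29.6 CPM each. The genes were chosen by these calls, which favour groups that lie apart, so the separation adds no support of its own.

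Young KD mice carry the same allele as the sick mice without the disease, and are younger. The sick KD libraries are the same as above, so the 2 comparisons are not independent. In this comparison 10 genes rose and 1 fell, together 11 of 77, beside 20.9% of the 14656 genes tested that were called (9.45% higher and 11.4% lower). The median log2 fold change was 0.19, beside 0.01 for all genes, 62 genes (80.5%) were above 0, beside 51.2% of all genes, and the medians of the large and small subunits were 0.17 and 0.20. Sick KD mice lay above young KD mice without overlap in 49 genes and below in 8, beside 34.3% and 32.4% of all genes. On total counts the median was 0.05, beside -0.13 for all genes, with 5 genes higher and 1 lower. Calls among the 77 genes were lost when single mice were left out. Such a fit has 1 mouse in a group, and fewer of all genes were called too, except without sick KD replicate 2. The median then lay between 0.13 and 0.22.

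The genes that rose, in the order of their log2 fold change, were Mrpl58 (0.57 ± 0.11, SE), Mrpl42 (0.55 ± 0.10), Mrps28 (0.55 ± 0.12), Mrpl35 (0.52 ± 0.11), Mrpl32 (0.52 ± 0.12), Mrpl12 (0.51 ± 0.10), Mrpl1 (0.49 ± 0.12), Mrpl4 (0.44 ± 0.12), Mrpl30 (0.43 ± 0.10) and Mrps14 (0.40 ± 0.10). Their adjusted p ranged from 0.0179 to 0.0427 (quasi-likelihood test of edgeR, Benjamini-Hochberg adjustment). Mrps28, a small-subunit protein, was at 30.8 and 29.2 CPM in sick KD, 20.7 and 19.998 CPM in young KD, 22.5 and 20.8 CPM in young KO and 20.7 and 24.4 CPM in old KO. Mrps14, a protein of the small-subunit head, was at 57.5 and 56.9 CPM in sick KD and 43.3 and 43.1 CPM in young KD. For both genes the sick KD mice were the highest of the 8.

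Mrpl30 was at 79.5 and 81.3 CPM in sick KD, 59.1 and 59.5 CPM in young KD and 53.6 to 66.0 CPM in the KO mice. Mrpl4, which lines the exit tunnel, was at 65.0 and 74.3 CPM in sick KD, 52.7 and 49.5 CPM in young KD and 54.4 to 59.6 CPM in the KO mice. The KO mice of both genes were closer to young KD than to sick KD.

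Mrpl49 was the only gene of the group that fell. It was at 29.6 CPM in both sick KD mice, 48.2 and 40.6 CPM in young KD, 41.9 and 45.9 CPM in young KO and 38.0 and 38.5 CPM in old KO. The sick KD mice were the lowest, and the old KO mice came next. The log2 fold change was -0.59 ± 0.13 against young KD (SE, adjusted p = 0.0254, edgeR with Benjamini-Hochberg adjustment) and -0.37 ± 0.11 against old KO (adjusted p = 0.062). Its exons overlap those of Syvn1 on the other strand, and its promoter window overlaps that of Fau, which codes for a protein of the cytosolic ribosome.

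The interaction asks whether the change from young to sick in KD mice differed from the change from young to old in KO mice, over all 8 mice. Of the 77 genes 5 were called, all higher and all of the large subunit, beside 7.43% of the 15102 genes tested (3.11% higher and 4.32% lower). The log2 difference was 0.72 ± 0.14 (SE) for Mrpl1, 0.65 ± 0.13 for Mrpl12, 0.63 ± 0.14 for Mrpl32, 0.62 ± 0.12 for Mrpl42 and 0.61 ± 0.13 for Mrpl35, with adjusted p from 0.0287 to 0.0389 (quasi-likelihood test of edgeR, Benjamini-Hochberg adjustment). The median over the 77 genes was 0.22 beside 0.00 for all genes, and 66 of 77 were above 0 (50% of all genes). The medians of the large and small subunits were 0.21 and 0.23, and no test of a difference between subunits was made. Age rises in both arms of this contrast, and only the KD arm ends in disease. An effect of disease cannot be told apart from a change with age that is particular to KD mice. Some or all of these calls were lost when any mouse other than sick KD replicate 2 was left out. Such a fit has 1 mouse in a group, and in the same fits fewer of all genes were called too. The median over the 77 genes lay between 0.17 and 0.29 when a mouse was left out.

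The young comparison asks what the KO and KD alleles do before disease. None of the 77 genes was called between young KO and young KD by edgeR or by DESeq2, and none had an unadjusted p under 0.05, where 0.0404% of the 14839 genes tested were called by edgeR and 2.66% had an unadjusted p under 0.05. The median log2 fold change was 0.04, beside -0.01 for all genes, and 58 genes were above 0 (47.7% of all genes). The ranges of the groups were apart in 22 genes with young KO higher and in 2 with young KO lower, beside 14.9% and 12.2% of all genes. Mrpl4 had the largest positive value, at 59.6 and 55.8 CPM in young KO against 52.7 and 49.5 CPM in young KD (log2 fold change 0.17 ± 0.08, SE). The median fell to 0.00 without young KO replicate 1, whose summed level was the highest of the young mice.

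Old KO against young KO asks what changes with age in KO mice. Again 0 of 77 genes were called by edgeR and by DESeq2, beside 0.929% of the 14847 genes tested by edgeR, and 0 had an unadjusted p under 0.05, beside 8.86% of all genes. The lowest p was that of Mrpl1 (log2 fold change -0.22 ± 0.09, SE, adjusted p = 0.564, edgeR with Benjamini-Hochberg adjustment), at 32.5 and 35.6 CPM in old KO against 39.7 and 39.8 CPM in young KO. The median was -0.04, beside 0.00 for all genes, with 20 genes above 0 (49.8% of all genes) and 57 under it. Old KO mice lay above young KO mice without overlap in 1 gene, Mrpl48, and below in 17, beside 18.8% and 18.9% of all genes.

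**Figure D4:**
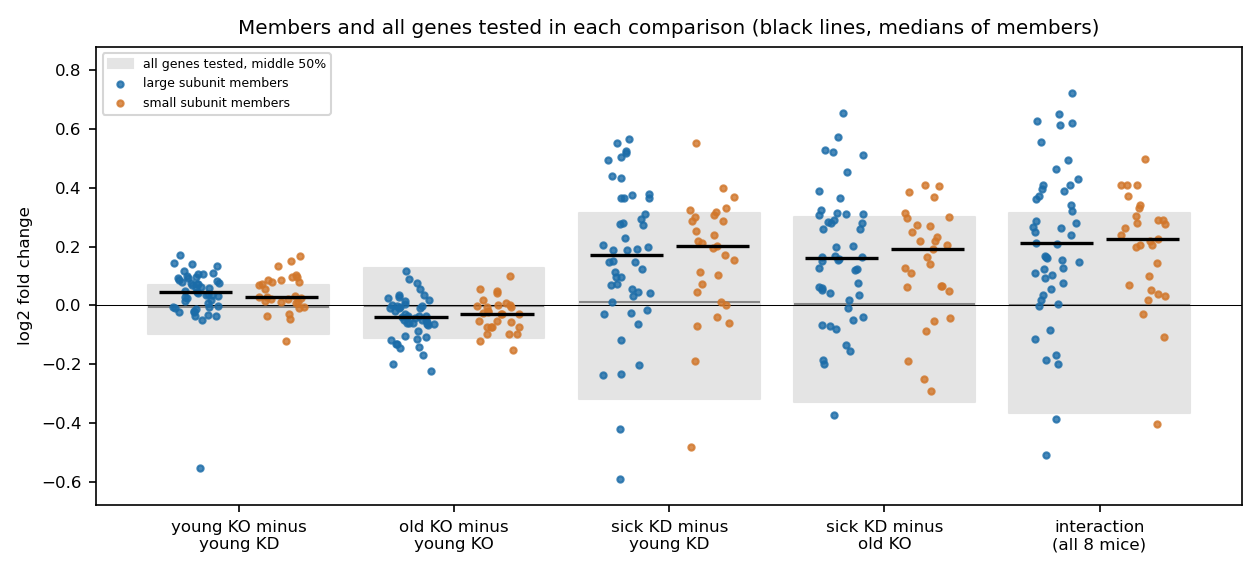
Log2 fold change of each large-subunit gene (blue points, n = 48) and small-subunit gene (orange points, n = 29) in the 4 comparisons and the interaction, with black lines at the subunit medians. The grey band holds the middle 50% of all genes tested and the grey line their median, and the medians of both subunits lie between 0.16 and 0.23 in the contrasts that involve sick KD and between -0.04 and 0.05 in the other 2.

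The stalk recruits translation factors to the ribosome and is formed by Mrpl10, Mrpl11 and Mrpl12. Mrpl10 was at 53.3 and 59.9 CPM in sick KD and 49.8 and 51.3 CPM in old KO (log2 fold change 0.16 ± 0.12, SE). Mrpl11 was at 27.7 and 30.9 CPM in sick KD and 30.8 and 29.2 CPM in old KO (-0.04 ± 0.13, SE). Among the 3 stalk genes only Mrpl12 was called, and whether it differed from the other 2 was not tested.

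The 3 homologues of bacterial S18 occupy different places, Mrps18a in the large subunit and Mrps18b and Mrps18c in the small. Mrps18a was at 29.3 and 36.1 CPM in sick KD and 30.4 and 32.0 CPM in old KO, Mrps18b at 18.4 and 19.95 CPM against 16.9 and 16.3 CPM, and Mrps18c at 37.7 and 36.7 CPM against 31.4 and 32.3 CPM. The groups overlapped for Mrps18a and were apart for the other 2, and none of the 3 passed the test (adjusted p from 0.212 to 0.775, edgeR with Benjamini-Hochberg adjustment). Mrps30, the other large-subunit protein with a small-subunit name, was at 58.7 and 61.5 CPM in sick KD and 45.5 to 49.4 CPM in the other 6 mice, with an adjusted p of 0.097 against old KO and 0.0505 against young KD.

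Other genes of known role did not pass the test either. Mrps12, which lies at the decoding centre, was at 22.0 and 26.6 CPM in sick KD and 26.1 and 29.1 CPM in old KO. Mrps22 was at 33.3 and 27.5 CPM in sick KD and 22.8 and 25.9 CPM in old KO, and Mrps34 at 18.4 and 20.9 CPM against 19.7 and 15.9 CPM. Mrpl45, at the membrane-facing exit of the tunnel, was at 39.4 and 43.6 CPM in sick KD against 31.6 and 34.5 CPM in old KO, and Mrpl44, a protein with an RNase III fold, at 38.0 and 36.0 CPM against 33.7 and 34 CPM. Mrps36 was at 11.1 and 12.9 CPM in sick KD and 10.6 and 10.7 CPM in old KO. Sick KD was above old KO without overlap for Mrps22, Mrpl45, Mrpl44 and Mrps36 and overlapped it for Mrps12 and Mrps34.

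Members with and without a bacterial counterpart had like medians in sick KD against old KO. In the large subunit, counted by structure, the medians were 0.17 for 29 genes with a counterpart and 0.15 for 21 without, and in the small subunit 0.16 for 16 with and 0.21 for 10 without. In 45 of the 77 genes no exon overlaps another annotated gene, and among these 5 rose, 0 fell and the median was 0.25. The called genes were poorer in GC than the rest, with a median of 43.2% in the longest transcripts of the 7 called genes against 50.04% in the other 70. Those transcripts were also longer, with a median of 3013 bases against 1732.5 bases, and 3111 bases over all genes tested. Across the 77 genes Spearman's rho between GC content and the log2 fold change was -0.26, and across 14368 genes it was -0.20. When each library's trend in GC content, length and gene span was removed, 19 genes were called and all were higher, beside 25.9% of all genes, and over all genes the split turned from 1189 higher and 1437 lower to 2029 higher and 1715 lower.

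Another 5 proteins of the ribosome carry no Mrp symbol, and 1 of their genes was called in each comparison with sick KD. Aurkaip1, a small-subunit protein, was at 90.7 and 91.1 CPM in sick KD and 64.1 to 73.1 CPM in the other 6 mice. It rose against old KO (log2 fold change 0.43 ± 0.11, SE, adjusted p = 0.0358), against young KD (0.48 ± 0.10, adjusted p = 0.0217) and in the interaction (0.55 ± 0.12, adjusted p = 0.0372, edgeR with Benjamini-Hochberg adjustment). Chchd1 was at 47.3 and 45.8 CPM in sick KD and 33.1 to 39.4 CPM elsewhere, Ptcd3 at 73.3 and 59.4 CPM and 51.5 to 58.0 CPM elsewhere, and Dap3 at 70.8 and 71.5 CPM and 63.0 to 68.1 CPM elsewhere. Sick KD was outside the range of the other mice for these 3 genes too, and none passed the test in any comparison. Gadd45gip1 of the large subunit was at 25.5 and 34 CPM in sick KD and 32.1 to 35.4 CPM elsewhere, so that only sick KD replicate 1 was apart.

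Of 28 genes that build the ribosome, 2 rose and 1 fell against old KO, where 8.22% of all genes rose and 9.93% fell. Against young KD 5 rose and 1 fell, where 9.45% of all genes rose and 11.4% fell. Ddx28, a helicase of large-subunit assembly, was at 42.7 and 55.5 CPM in sick KD, 30.2 and 31.0 CPM in old KO and 25.6 to 28.7 CPM in young mice, with log2 fold changes of 0.68 ± 0.15 against old KO (SE, adjusted p = 0.0268) and 0.89 ± 0.15 against young KD (adjusted p = 0.0144, edgeR with Benjamini-Hochberg adjustment). Malsu1, which keeps the subunits apart until the large one is finished, was at 30.9 and 26.6 CPM in sick KD and 17.9 to 21.5 CPM elsewhere (0.63 ± 0.14 against old KO, SE, adjusted p = 0.0287, edgeR with Benjamini-Hochberg adjustment). Noa1, a GTPase of assembly, and C1qbp rose against young KD by 0.64 ± 0.13 and 0.54 ± 0.11 on the log2 scale (SE, adjusted p = 0.02 and 0.0205, edgeR with Benjamini-Hochberg adjustment).

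Translation factors and transfer RNA synthetases were looked at next. Of 16 translation factors 0 were called against old KO by edgeR or by DESeq2, with 4 higher and 1 lower at an unadjusted p under 0.05 in edgeR, and against young KD only the recycling factor Mrrf rose (12.9 and 12.6 CPM in young KD, 19.8 and 18.6 CPM in sick KD). Of 22 genes for mitochondrial transfer RNA synthetases and the glutamyl amidotransferase, 2 rose against old KO and 3 against young KD, and none fell, beside the same shares of all genes. Fars2, the phenylalanyl synthetase, was at 40.6 and 43.1 CPM in sick KD and 28.3 to 31.3 CPM elsewhere, and Gatc, of the amidotransferase, at 21.3 and 22.8 CPM and 14.0 to 15.5 CPM elsewhere. Both genes were apart from all other mice. Lars2, the leucyl synthetase, was the gene called between young KO and young KD (57.9 and 48.9 against 8.4 and 9.74 CPM), but its old KO mice differed from each other at 22.7 and 189 CPM. Lars2 also rose against young KD in sick KD, where it was at 22.5 and 33.0 CPM (log2 fold change 1.61 ± 0.21, SE, adjusted p = 0.00788, edgeR with Benjamini-Hochberg adjustment).

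Genes of mitochondrial transcription and genome maintenance gave 2 higher and 0 lower of 14 against old KO, and 2 higher and 2 lower against young KD. Hsd17b10, a subunit of mitochondrial RNase P, was at 66.6 and 69.4 CPM in sick KD and 45.3 to 52.3 CPM elsewhere, and Tfb2m, the initiation factor of the mitochondrial polymerase, at 18.5 and 18.2 CPM and 11.3 to 13 CPM elsewhere. Tfam, which packs the mitochondrial genome, was lower, at 40.5 and 35.3 CPM in sick KD against 52.1 and 53.8 CPM in young KD (log2 fold change -0.49 ± 0.12, SE, adjusted p = 0.0335, edgeR with Benjamini-Hochberg adjustment). Mterf2 was at 2.62 and 3.06 CPM in sick KD, 3.52 and 3.47 CPM in old KO and 6.15 to 7.24 CPM in young mice.

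Of 11 regulators of mitochondrial biogenesis tested against old KO 4 fell and 0 rose, beside 9.93% and 8.22% of all genes, and the median of the list was -0.05. Of 12 tested against young KD 6 fell and 2 rose, beside 11.4% and 9.45% of all genes, and the median was -0.34. These are calls of edgeR, and DESeq2 called 1 higher and 4 lower against old KO and 2 higher and 4 lower against young KD. Yy1, whose core letters are among those counted in the promoters, was at 61.8 and 62.8 CPM in sick KD, 85.9 and 97.2 CPM in old KO and 81.9 to 93.1 CPM in young mice (log2 fold change -0.56 ± 0.12 against old KO, SE, adjusted p = 0.0215, edgeR with Benjamini-Hochberg adjustment). Atf4 and Ddit3, factors of the stress response, are also in this list and were among the genes that fell against old KO. They were at 110 and 123 CPM and at 4.93 and 5.33 CPM in sick KD, against 160 to 212 CPM and 7.91 to 12.9 CPM in the other mice. Ppargc1a, a coactivator of mitochondrial genes, was under 1.2 CPM in every mouse and fell against young KD. In the other direction, Myc was at 31.9 and 44.3 CPM in sick KD and 21.1 to 30.1 CPM in the other mice. Pprc1 was at 30.4 and 39.9 CPM in sick KD and 19.3 to 24.3 CPM in the other mice.

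The RNAs that the mitochondrial genome itself encodes differed far more than the genes for its ribosomal proteins. They were looked at after the values of the ribosomal genes were known. The ribosomal RNAs mt-Rnr1 and mt-Rnr2 together were at 6357 and 5107 CPM in sick KD and 1229 to 2495 CPM in the other 6 mice. Against old KO the log2 fold changes were 1.99 ± 0.30 for mt-Rnr1 and 1.92 ± 0.23 for mt-Rnr2 (SE, adjusted p = 0.00885 and 0.0052, edgeR with Benjamini-Hochberg adjustment). Of 13 mitochondrial messages 7 were tested and 6 rose against old KO and against young KD, with medians of 1.33 and 0.93. The messages not tested had 12 reads or fewer in every library, so the sum of all rests on those tested. That sum was 8931 and 7356 CPM in sick KD and 3269 to 5453 CPM elsewhere. The libraries were selected for poly(A) RNA, which holds ribosomal RNA only in part. The share of uniquely aligned reads that matched no counted feature was also highest in the sick KD libraries. Alignments that were not unique entered no count. They exceeded the counts on genes in every library, and by most in sick KD (45056950 against 26642067 and 56501078 against 30139409). What each of these contributes was not tested.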

How the data were processed

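Total bone marrow RNA of 8 mice was sequenced from stranded TruSeq mRNA libraries, 1 library per mouse. Per the submitters' processing notes, reads were aligned to mm10 with TopHat2 2.0.10, handled with SAMtools and counted on genes with HTSeq. The deposited values are the authors' raw counts per Ensembl gene, not normalised. The Ensembl release and the strand setting of the counting are not given in the sources used here. The 5 HTSeq tallies that name no gene were kept out of library sizes and tests. Tests of the authors were not used.

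Symbols and biotypes came from GENCODE M21 and named 40340 of 41214 genes. The genes and lists described here were chosen with earlier results of these data known. Groups were taken from the titles, in which mice carry individual numbers. Counts were filtered with filterByExpr, scaled with TMM and tested over all genes with the quasi-likelihood test of edgeR 4.0.16 (R 4.3.3) on the 4 mice of each pair of groups, or on all 8 mice for the interaction, with Benjamini-Hochberg adjustment and a threshold of 0.05. CPM values use TMM factors over all 8 libraries. Standard errors were derived from the fold change and its F statistic. The script was tested on simulated data.

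Members named were those called in a comparison, those at either end of the levels per kb in each subunit, and a list of members of known role. Of the other lists, all 5 subunits without an Mrp symbol and up to 3 called genes with the smallest adjusted p per list were named. Mrpl46, Mrps11, Mrpl48, Spg7, Myc, Pprc1, the overlapping neighbours and the mitochondrial RNAs were chosen after their values were seen.

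Mice of a group differed beyond sampling noise, with chi-square per degree of freedom over the 77 genes between 2.51 and 3.75, so each mouse counted as a replicate. The alternatives were DESeq2 1.42.0, RLE factors, other filters on low counts, all 8 mice in one fit, leaving out the 50 genes with most counts or some gene classes, removing trends in GC content, length and gene span, a pseudocount of 5 CPM, other subunit assignments and leaving out each mouse. Total counts in place of TMM, and only members without overlapping genes, were added after seeing the data. Mrpl33, Prorp and Ahsp are not analysed here.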

Additional observations from a re-analysis of the deposited data

Results flagged for a closer look

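The change from young to sick in KD mice exceeded the change from young to old in KO mice in 5 large-subunit genes by a test of the difference itself, the interaction in the quasi-likelihood test of edgeR. The log2 difference was 0.722 for Mrpl1, 0.652 for Mrpl12, 0.628 for Mrpl32, 0.615 for Mrpl35 and 0.622 for Mrpl42. The 2 sick KD mice were above every other mouse in each of the 5 genes, a pattern that the choice of genes by this test favours. Some or all of these calls were lost when any mouse other than sick KD replicate 2 was left out, and over all genes fewer were called in those fits too. Such a fit has 1 mouse in a group.

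Reads were also counted on pseudogenes that share a symbol with the ribosomal genes and entered no comparison. Mrpl23-ps1 had 940 reads over the 8 libraries, Mrpl48-ps 111 and Mrps36-ps1 32, all above the 3 reads that a count of 0 allows, and the other 2 had 1 and 0 reads. How alike these pseudogenes and their parent genes are in sequence was not examined, and the division of reads between them is uncertain.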

How the results depend on the processing

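No paired analysis was possible because the mice carry individual numbers and the groups share none. No gene named here as called turned in sign in any setting run, and 0 of the 77 genes were called between young KO and young KD or between old KO and young KO in any of them. With all 8 mice in one fit, 19 genes were called against old KO (18 higher, 1 lower) and 20 against young KD, beside 27.8% and 27.1% of all genes. With trends in GC content, length and span removed, 19 and 25 were called, beside 25.9% and 30.8% of all genes. In the interaction 14 were called, beside 13.4% of all genes. Over all genes the split against young KD turned from 1385 higher and 1678 lower to 2423 and 2084. The medians then were 0.23 against old KO and 0.27 in the interaction, and the large minus small difference against old KO was 0.059. On total counts 6 genes were called against young KD, the medians were 0.045 against old KO, 0.047 against young KD and 0.087 in the interaction, beside -0.13 over all genes in the last, and the split over all genes was 868 higher and 2125 lower against old KO and 871 and 2635 against young KD. In genes without overlaps the medians were 0.25, 0.22 and 0.28. Over all genes, 4325 were called against old KO without a filter and 4200 with all 8 mice in one fit, beside 2626. DESeq2 called 1951 genes in the interaction, beside 1122, 383 for old against young KO, beside 138, and 26 for young KO against young KD, beside 6, and it called 4 assembly genes higher against old KO, beside 2. The log2 ratio of large to small was 1.16 per kb and 1.29 by structure, and the mean log2 level with a pseudocount of 5 was 5.22. The cause of these shifts was not tested.

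When 1 mouse was left out, the lone remaining mouse of its group was taken to vary like the others. The number called then ranged from 0 to 6 against old KO, 0 to 10 against young KD and 0 to 5 in the interaction. The medians ranged from 0.15 to 0.22 against old KO, 0.13 to 0.22 against young KD, -0.090 to 0.0092 for old against young KO, 0.0047 to 0.086 for young KO against young KD and 0.17 to 0.29 in the interaction. Over the genes named, 283 values kept their side of the threshold without 1 mouse, 162 lost their call, 3 gained a call and 20 turned in sign. Against old KO, signs turned for Mrpl11 (-0.12 to 0.038), Gadd45gip1 (-0.41 to 0.0054), Mrps18a (-0.091 to 0.21) and Mrps34 (-0.0039 to 0.29). For young KO against young KD they turned for Ptcd3 (-0.044 to 0.014, with 0.0031 without young KD replicate 2), Chchd1 (-0.022 to 0.095) and Gadd45gip1 (-0.020 to 0.097), and for old against young KO for Gfi1 (-0.097 to 1.06) and Gadd45gip1 (-0.064 to 0.047). Against young KD they turned for Mrps12 (-0.20 to 0.072), Gfi1 (-0.27 to 0.11), Gadd45gip1 (-0.37 to 0.041), Mrpl11 (-0.011 to 0.15), Mrps18a (-0.045 to 0.26) and Mrps36 (-0.043 to 0.18), and in the interaction for Gadd45gip1 (-0.35 to 0.051) and Gfi1 (-1.12 to 0.041).

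Among genes not called, small differences turned in sign. With trends removed these were Mrpl11 at 0.12 against old KO, Mrps18c at -0.014, Mrps36 at -0.087, Gfi1 at 0.10 and Chchd1 at -0.00054 against young KD, and Gadd45gip1 at 0.022 in the interaction. On total counts they were Mrps18a at -0.053 and Dap3 at -0.028 against old KO, and Mrpl11 at -0.072, Mrpl44 at -0.026, Mrps18a at -0.028, Mrps36 at -0.069 and Dap3 at -0.012 against young KD. Of the 77 genes, Mrpl53 had the fewest reads (192 in all), and its differences are the least precise.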
